A study of Mus musculus with 6 samples.

Results

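A set of 9 genes of the type I interferon response were followed in sorted double positive (DP) thymocytes of WT and NSrp70-cKO mice. They were taken by gene symbol and are 9 of the 23183 symbols in the deposited tables: *Stat2* and *Irf9*, which encode subunits of the transcription factor ISGF3, the interferon regulatory factors *Irf1* and *Irf7*, and the interferon-induced genes *Isg15*, *Ifit1*, *Ifit3*, *Oasl2* and *Bst2*. These cells are immature T cells at the stage at which CD4 and CD8 are both on the surface. Bulk mRNA-seq was carried out on 3 libraries from *Nsrp1* f/f mice (WT) and 3 from *Nsrp1* f/f CD4Cre mice (NSrp70-cKO), so both genotypes carried the floxed *Nsrp1* alleles and only the cKO mice carried the Cre transgene. All mice were C57BL/6 and 6 weeks old, and the Cre is driven by *Cd4* sequences, so that deletion takes place in thymocytes that have switched on *Cd4* and in the T cells that come from them, not in other cells of the thymus. The comparison asks how the loss of NSrp70, a regulator of splicing encoded by *Nsrp1*, changes the mRNA of DP thymocytes.

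Type I interferons bind the receptor made of IFNAR1 and IFNAR2, whose kinases TYK2 and JAK1 phosphorylate STAT proteins, STAT2 among them. The phosphorylated STATs bind IRF9 to form ISGF3, which recognizes the interferon-stimulated response element (ISRE) in the promoters of antiviral genes, among them *Irf7*, which then raises interferon production further. Thymocytes meet interferon from thymic epithelium and plasmacytoid dendritic cells, and maturing thymocytes are known to raise interferon-stimulated genes before they leave the thymus.

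The values are FPKM, fragments per kilobase of transcript and per 1 M mapped fragments (M, mega), as the authors calculated them. The mapped depth, estimated from the steps of 1 fragment at low genes, was 20.7 to 20.8 M fragments in each WT library, and in cKO 1, 2 and 3 it was 13.1, 20.6 and 17.3 M. The total FPKM of a library was 521296 to 531517 in WT and 701396 to 850548 in cKO. The size factors, each the median ratio of a library to the geometric mean of all, were only 1.002 to 1.015. Dividing by them thus left the values nearly as deposited. Whether the deposited values had already been scaled between libraries was not tested, and the depth above would then be a scaled denominator. *Nsrp1* itself, listed under its older symbol *Ccdc55*, was at 20.2, 20.7 and 21.1 FPKM in WT and at 17.7, 15.8 and 15.0 FPKM in cKO, a log2 difference of -0.34 (SE 0.077, adjusted p = 0.00675 from limma) that FPKM of the whole gene gives without regard to the floxed exons. *Xist* lay at 69.8 to 72.0 FPKM in WT and at 4.07 to 5.44 FPKM in cKO, and 4 genes of chromosome Y were listed at 0 in every WT library and above 0 in every cKO library, so sex and genotype cannot be told apart in any value below. The differences between WT libraries came to 1.55 to 1.70 times the variance that counting alone gives, and those between cKO libraries to 32.0 to 66.2 times. Nothing in the labels says that the libraries of a genotype came from separate animals, so the p-values measure the spread between these libraries, which may be technical, and the counts of the main lists are also given with the mean of the WT libraries standing as 1 sample.

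The promoter windows of the members were read first, because ISGF3 and IRFs act through a short sequence that can be looked for. RefSeq windows on GRCm38.p6 run from 250 bases before to 50 bases after each annotated gene start, and all 9 members matched by symbol, with 11 windows because *Irf1* and *Irf9* have more than 1 start. The core of the ISRE, GAAANNGAAA on either strand, was present in 1131 of 32851 windows (3.44%) and in those of 5 of the 9 members, *Isg15*, *Ifit1*, *Ifit3*, *Bst2* and *Stat2*. The STAT dimer core (GAS), TTCNNNGAA, which reads the same on both strands, was present in 2726 windows (8.30%) and in those of *Irf1* and *Bst2*. The 250 bases upstream of 3 members are shown, since these differ in the number, strand and spacing of the matches: *Isg15* on the minus strand of chr4:156200819-156201068, *Ifit1* on the plus strand of chr19:34640639-34640888 and *Stat2* on the plus strand of chr10:128270248-128270497. Each is written 5′ to 3′ in the direction of the gene, ending just before the annotated start, and capitals mark the ISRE core.
Isg15: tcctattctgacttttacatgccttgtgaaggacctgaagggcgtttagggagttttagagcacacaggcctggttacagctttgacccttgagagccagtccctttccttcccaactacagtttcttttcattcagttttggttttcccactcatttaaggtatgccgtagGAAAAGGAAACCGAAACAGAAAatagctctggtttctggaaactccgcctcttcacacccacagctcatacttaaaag
Ifit1: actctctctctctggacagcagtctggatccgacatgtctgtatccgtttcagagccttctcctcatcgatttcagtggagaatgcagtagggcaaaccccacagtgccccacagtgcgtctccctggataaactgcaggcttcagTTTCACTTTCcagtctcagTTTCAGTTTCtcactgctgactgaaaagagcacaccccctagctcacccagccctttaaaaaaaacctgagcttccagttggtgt
Stat2: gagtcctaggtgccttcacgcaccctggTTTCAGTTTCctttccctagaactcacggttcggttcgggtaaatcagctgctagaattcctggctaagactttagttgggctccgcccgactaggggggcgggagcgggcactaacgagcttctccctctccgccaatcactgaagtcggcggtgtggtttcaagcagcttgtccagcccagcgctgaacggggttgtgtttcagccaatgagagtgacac

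*Isg15* held 3 matches that overlap each other, the first starting at position -78 and the last ending at position -57 from the gene start. *Ifit1* held a pair of separate matches on the opposite strand, starting at -104 and -85, and *Ifit3* likewise a pair starting at -156 and -122. In *Bst2* the ISRE matches at -130 and -124 overlap each other, and the first overlaps the GAS match at -136. The single match of *Stat2* started at -222, farther from the start than those of the other members. No window of *Irf1*, *Irf7*, *Irf9* or *Oasl2* held these ISRE letters, and a match or its lack is a description of the letters only.

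**Figure D1:**
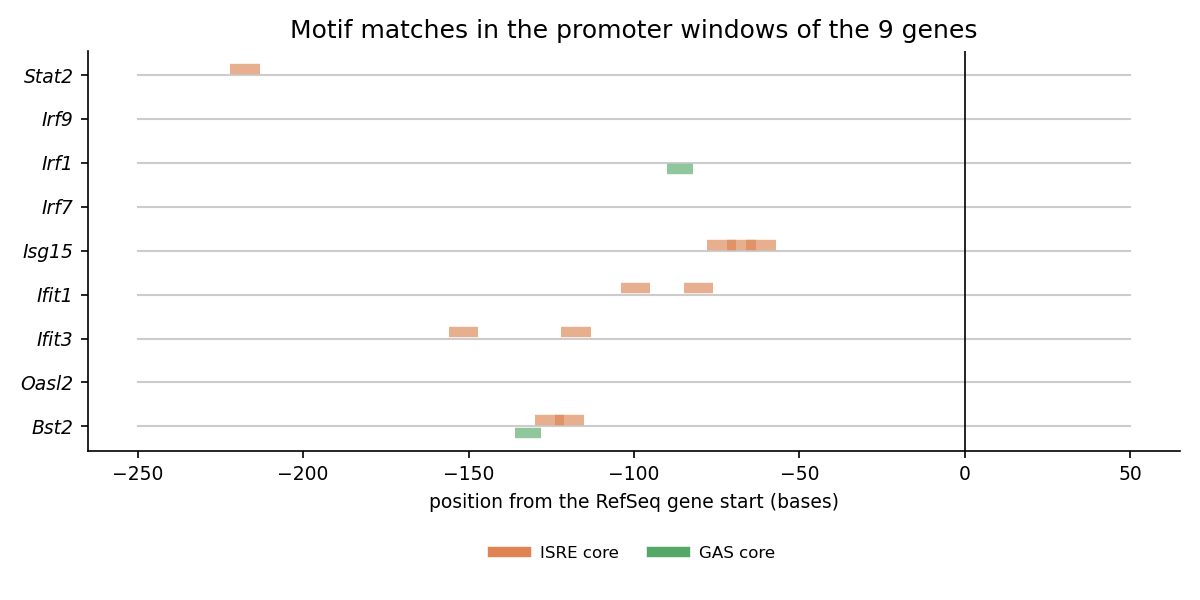
Positions of ISRE core matches (orange) and GAS core matches (green) in the RefSeq promoter windows of the 9 members, as bases from the annotated gene start at 0, with the matches of all windows of a gene drawn on 1 line. *Isg15*, *Ifit1*, *Ifit3*, *Bst2* and *Stat2* hold the ISRE core, and *Irf1* and *Bst2* hold the GAS core.

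In NSrp70-cKO DP thymocytes, 6 of the 8 members that could be tested fell and 1 rose. With a pseudocount of 1, *Irf9* and *Irf7* had the most negative log2 differences, with mean FPKM at 40.6% and 37.1% of the WT mean, followed by *Stat2* at 59.3%, *Ifit3* at 39.8%, *Ifit1* at 62.4% and *Irf1* at 75.7%. With a pseudocount of 0.1 the order was *Irf7* (-1.39), *Irf9* (-1.29) and *Ifit3* (-1.23). *Isg15*, a ubiquitin-like protein that is joined to other proteins in the antiviral response, was higher at 129% of the WT mean, a call that many of the other settings did not give. *Bst2* did not pass the test, and *Oasl2*, at 28.2% of the WT mean, lay below the level that was tested. The test was limma on log2(FPKM + 1), after each library was divided by its size factor, for the 10326 genes that reached an FPKM of 1 in 3 libraries or more, with p adjusted over all of them by the Benjamini-Hochberg method and called at 0.05. Over all tested genes, 29.8% were called lower and 35.8% higher. The median log2 difference of the 8 tested members was -0.53, beside 0.04 for all tested genes, and *Ifit3* passed the filter only through its WT libraries. In all 9 members, the cKO libraries lay entirely below the WT libraries in 7 and entirely above in 1, where 33.3% and 39.2% of tested genes did so. With the WT libraries counted as 1 sample, *Irf9* and *Irf7* were the members still called, both lower, where 8.73% of genes were called lower and 7.21% higher.

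**Figure D2:**
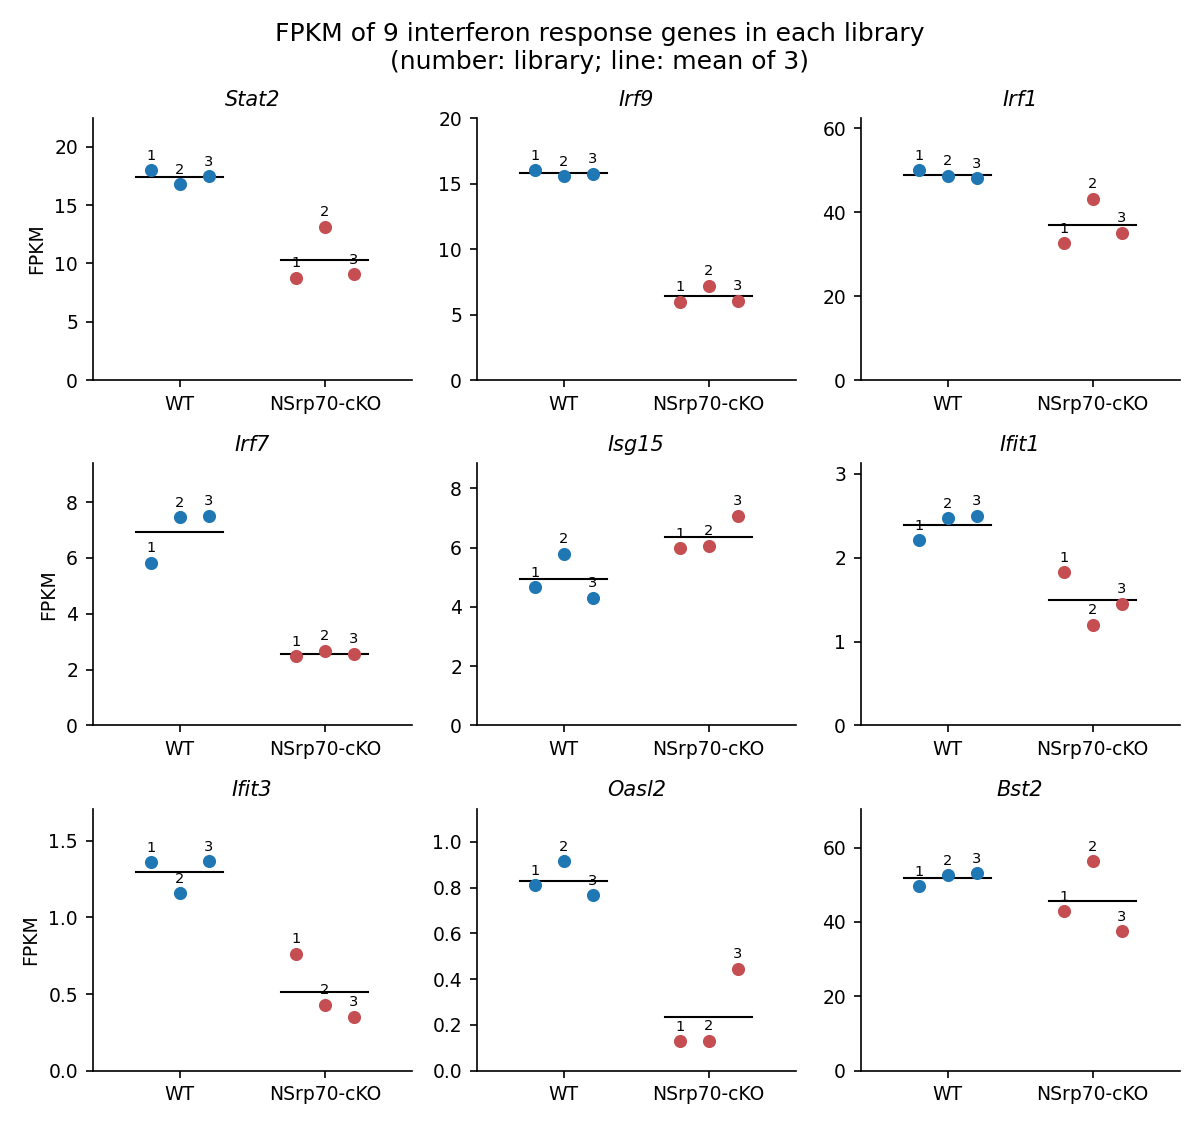
FPKM of the 9 members (1 panel each, axis from 0) in the 3 WT libraries (blue) and 3 NSrp70-cKO libraries (red), with the library number over each point and a line at the mean of 3. All cKO points lie below all WT points in 7 panels, above them in that of *Isg15*, and on both sides of them in that of *Bst2*.

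Both members that encode subunits of ISGF3 fell. *Stat2*, on chromosome 10 from 128270559 to 128292849 of GRCm38 (plus strand, 24 exons), had an FPKM of 18.0, 16.8 and 17.5 in WT 1, 2 and 3 and of 8.76, 13.1 and 9.06 in cKO 1, 2 and 3. The cKO libraries all lay below the WT libraries, with cKO 2 nearest to them, and the log2 difference was -0.72 (SE 0.14, adjusted p = 0.00340 from limma). *Irf9*, the DNA-binding subunit, on chromosome 14 from 55603571 to 55610030 (plus strand, 10 exons), had an FPKM of 16.0, 15.6 and 15.8 in WT and of 5.98, 7.21 and 6.05 in cKO. Its groups stood far apart with little spread in either, and the log2 difference was -1.18 (SE 0.080, adjusted p = 0.000110 from limma), the most negative of the members at this pseudocount. The gene model of *Irf9* overlaps that of *Rnf31* on the same strand, and *Rnf31* also fell, from 17.4 to 17.9 FPKM in WT to 7.58 to 10.8 FPKM in cKO, so fragments of the overlap could be given to either gene.

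Both regulatory factors fell, by different amounts. *Irf7*, the factor that amplifies interferon production, on chromosome 7 from 141262706 to 141266481 (minus strand, 10 exons), had an FPKM of 5.83, 7.46 and 7.51 in WT and of 2.48, 2.68 and 2.57 in cKO. The cKO libraries were nearly equal and all below the lowest WT library, and the log2 difference was -1.14 (SE 0.10, adjusted p = 0.000205 from limma). *Irf1*, which responds to interferon gamma and type I interferon and is needed for the development of CD8 T cells, lies on chromosome 11 from 53770014 to 53778374 (plus strand, 10 exons). Its FPKM was 49.9, 48.6 and 48.0 in WT and 32.6, 43.1 and 35.1 in cKO, so that all cKO libraries were lower and cKO 2 again came nearest to WT. The log2 difference of *Irf1* was -0.40 (SE 0.10, adjusted p = 0.0104 from limma), and its adjusted p was 0.178 with the WT libraries as 1 sample. *Irf7* overlaps *Phrf1* on the opposite strand, which fell from 38.1 to 39.2 FPKM in WT to 19.8 to 22.7 FPKM in cKO. *Irf1* overlaps *Gm17334* on the opposite strand, which was not analysed here. The libraries were strand-specific, but whether strand was used in the counting is not given in the sources used here.

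The effector genes differed in direction. *Isg15*, on chromosome 4 from 156199424 to 156200818 (minus strand, 2 exons), had an FPKM of 4.66, 5.80 and 4.32 in WT and of 5.99, 6.06 and 7.08 in cKO. These values stand for only about 54, 66.9 and 49.7 fragments in WT and 43.8, 69.5 and 68.3 fragments in cKO. The highest WT library, WT 2, lay just under the lowest cKO library, and the log2 difference was 0.32 (SE 0.11, adjusted p = 0.0398 from limma). The adjusted p of *Isg15* rose to 0.120, 0.140, 0.0543 and 0.123 without WT 1, WT 3, cKO 1 and cKO 3, respectively. Its difference turned to -0.16 (adjusted p = 0.288) when all libraries were scaled to the same FPKM total and to -0.27 (adjusted p = 0.0690) with a correction for GC content and length.

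*Ifit1* and *Ifit3*, whose proteins bind foreign RNA as a complex, lie on chromosome 19, *Ifit3* from 34583531 to 34588731 and *Ifit1* from 34640871 to 34650009 (both plus strand, 2 exons). *Ifit1* had an FPKM of 2.21, 2.47 and 2.50 in WT and of 1.83, 1.20 and 1.45 in cKO. All cKO libraries were below WT, with cKO 1 the nearest, and the log2 difference was -0.45 (SE 0.11, adjusted p = 0.0105 from limma). *Ifit3* had an FPKM of 1.36, 1.16 and 1.37 in WT and of 0.761, 0.431 and 0.352 in cKO, which is about 15.4, 13.7 and 9.4 fragments in cKO 1, 2 and 3. The groups were separate again, and the log2 difference was -0.60 (SE 0.12, adjusted p = 0.00446 from limma), or -1.23 with a pseudocount of 0.1 in place of 1. Under quantile normalization neither gene passed the test, with log2 differences of -0.24 for *Ifit1* (adjusted p = 0.116) and -0.27 for *Ifit3* (adjusted p = 0.0879). *Ifit3b*, a close paralog that can share fragments with *Ifit3*, had an FPKM of 0.132, 0.187 and 0.239 in WT and of 0.126, 0.0267 and 0 in cKO, lower in all cKO libraries as well.

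*Oasl2*, a member of the oligoadenylate synthetase family, on chromosome 5 from 114896936 to 114912234 (plus strand, 6 exons), had an FPKM of 0.810, 0.916 and 0.767 in WT and of 0.128, 0.130 and 0.445 in cKO. The cKO values stand for about 4.9, 7.8 and 22.6 fragments, and cKO 3 lay apart from the other cKO libraries. Without a filter on low values its log2 difference was -0.58 (SE 0.11, adjusted p = 0.00680 from limma). *Oasl1*, its nearest paralog, had overlapping groups, with 0.795, 0.954 and 1.18 FPKM in WT and 1.38, 0.854 and 1.16 FPKM in cKO.

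*Bst2*, which encodes tetherin, a membrane protein that holds budding virus at the cell surface, was the member with the highest FPKM and lies on chromosome 8 from 71534255 to 71537456 (minus strand, 5 exons). Its FPKM was 49.6, 52.6 and 53.1 in WT and 42.9, 56.4 and 37.4 in cKO. Libraries cKO 1 and cKO 3 lay below WT and cKO 2 lay above it, and the log2 difference was -0.20 (SE 0.14, adjusted p = 0.230 from limma). Without cKO 2, *Bst2* was called lower at -0.36 (adjusted p = 0.00401), and it was also called lower with library weights (adjusted p = 0.00571), with the correction for GC content and length (adjusted p = 0.0281) and with equal FPKM totals (adjusted p = 0.00970). Among the cKO libraries, cKO 2 had the highest value in 5 of the 9 members, *Stat2*, *Irf9*, *Irf1*, *Irf7* and *Bst2*.

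The order of levels, per length, was nearly the same in both genotypes. From the top it ran *Bst2*, *Irf1*, *Stat2*, *Irf9*, *Irf7*, *Isg15*, *Ifit1*, *Ifit3* and *Oasl2* in WT. In cKO, *Isg15* stood above *Irf7*, whose cKO mean of 2.57 FPKM was also below the WT mean of *Isg15* (4.93 FPKM). The ranges of *Bst2* and *Irf1* overlapped in both genotypes, and in cKO so did those of *Irf9* and *Isg15* and those of *Ifit3* and *Oasl2*, whereas in WT each of the other neighbors was separate. Scaling all libraries to the same FPKM total moved the median log2 difference of all tested genes from 0.04 to -0.45. Relative to that median, the differences were -1.24 for *Irf9*, -1.14 for *Irf7*, -0.79 for *Stat2*, -0.50 for *Irf1*, -0.41 for *Ifit3*, -0.37 for *Ifit1*, -0.30 for *Bst2* and 0.30 for *Isg15*. Subtracting the median largely takes the scaling out again, here and below, so such values are not a check independent of the fit with size factors.

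**Figure D3:**
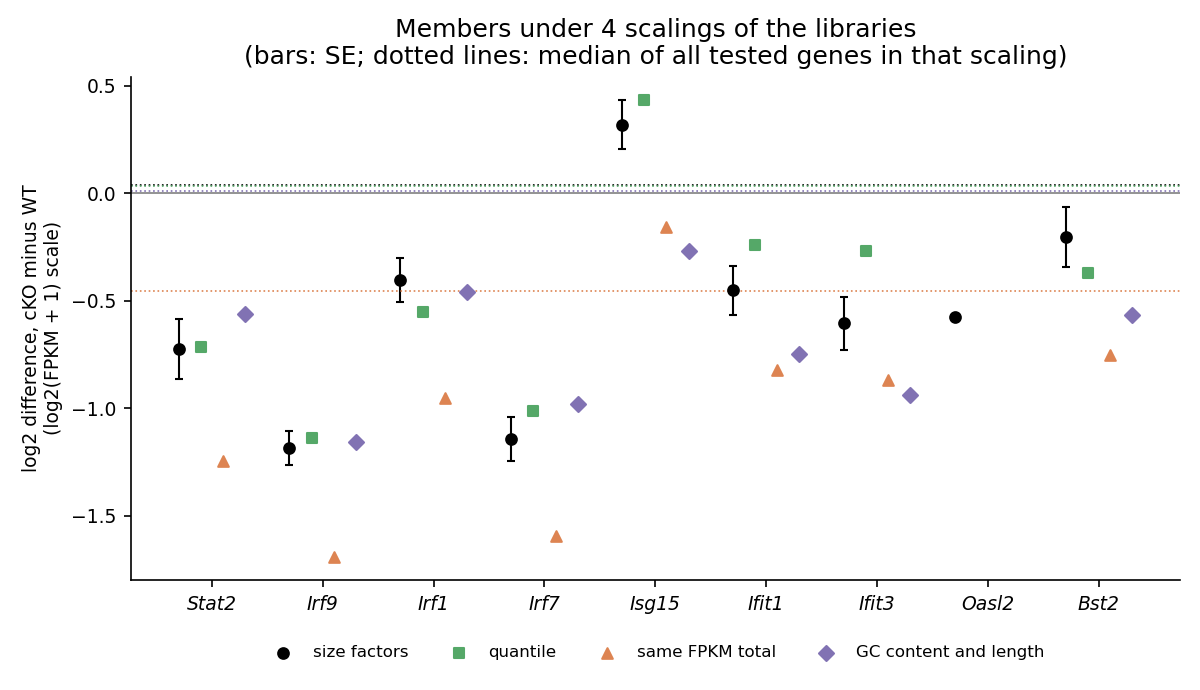
Log2 difference of each member, cKO minus WT, under 4 scalings of the 6 libraries: size factors (circles, with SE where tested), quantile normalization (squares), equal FPKM totals (triangles) and correction for GC content and length (diamonds). Dotted lines give the median of all tested genes under each scaling, from 0.04 with size factors to -0.45 with equal totals, and *Isg15* is the member whose sign turns.

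Each of the 8 tested members was also compared with the 7995 tested genes at a mean FPKM of 5 or more, and the most similar profiles over the 6 libraries were those of *Fam189b* and *Ager* for *Stat2*, *BC005537* and *Myh9* for *Irf9*, *Ddhd2* and *Pdk1* for *Irf1*, and *Cdk12* and *Pias2* for *Irf7* (Pearson r of 0.996 to 1.00). Those of *Ifit1* were *Dlg1* and *Mllt1*, those of *Ifit3* were *Rcor2* and *Med24*, and those of *Bst2* were *Ikzf2* and *Xlr4b* (r of 0.993 to 0.999). *Isg15* had weaker neighbors, *Mrpl45* (r = 0.980) and *Aaed1* (r = 0.967). With 6 libraries in 2 separate groups, such values describe the profiles and carry no test.

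Upstream of the members, the receptor genes moved in both directions. No gene for an interferon ligand was tested: of 21 ligand genes, 15 were listed at 0 in all 6 libraries and the highest value of any was 0.297 FPKM. Of 11 tested genes for receptors, Janus kinases and ISGF3 subunits, 2 rose and 5 fell (18.2% and 45.5%, beside 35.8% and 29.8% of all tested genes). The median log2 difference was -0.17. The 5 that fell include the members *Stat2* and *Irf9*, which are counted here again, so the share of lower genes does not stand apart from the members. Quantile normalization gave 7 lower and 1 higher. Equal FPKM totals gave 8 lower and 0 higher, where 6181 of all 10326 tested genes were lower and 902 higher. At an unadjusted p under 0.05 from limma, 0 of the list were higher with equal FPKM totals as well. *Ifnar2*, the type I receptor chain that binds interferon tightly, had an FPKM of 23.9, 22.6 and 23.0 in WT and of 38.3, 35.1 and 41.3 in cKO, a rise of 0.69 (SE 0.078, adjusted p = 0.000414 from limma) that was 0.15 with equal FPKM totals (adjusted p = 0.0873). *Ifnar1*, the other chain, fell by a smaller amount, from 22.6, 22.6 and 22.1 FPKM to 17.5, 20.2 and 19.2 FPKM (log2 difference -0.23, SE 0.068, adjusted p = 0.0196 from limma). The kinase *Tyk2*, which binds IFNAR1, had an FPKM of 7.71, 8.65 and 8.63 in WT and of 3.17, 4.13 and 4.26 in cKO (log2 difference -0.95, SE 0.11, adjusted p = 0.000408 from limma), and the groups of these 3 genes did not overlap. With the correction for GC content and length, the difference of *Tyk2* was -0.39 (adjusted p = 0.0335) and that of *Ifnar1* was -0.17 (adjusted p = 0.0598). *Jak1*, its partner on IFNAR2, lay at 103 to 106 FPKM in WT and at 97.4 to 116 FPKM in cKO (adjusted p = 0.777 from limma), and was called lower under quantile normalization (-0.31, adjusted p = 0.00391) and with equal FPKM totals (-0.53, adjusted p = 0.000707). Of the interferon gamma receptor, *Ifngr1* was higher by 0.57 with size factors, but was not called under quantile normalization (adjusted p = 0.963) or with equal FPKM totals (adjusted p = 0.913), and *Ifngr2* fell by 0.65. With equal FPKM totals the median of all tested genes was -0.45. Relative to it, the differences were 0.61 for *Ifnar2*, 0.47 for *Ifngr1* and -0.07 for *Jak1*. Those of *Ifnar1*, *Ifngr2* and *Tyk2* were -0.31, -0.73 and -0.97. With the WT libraries as 1 sample, *Ifnar2* (adjusted p = 0.0466), *Tyk2* (adjusted p = 0.0363) and *Irf9* were the genes of this list still called.

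**Figure D4:**
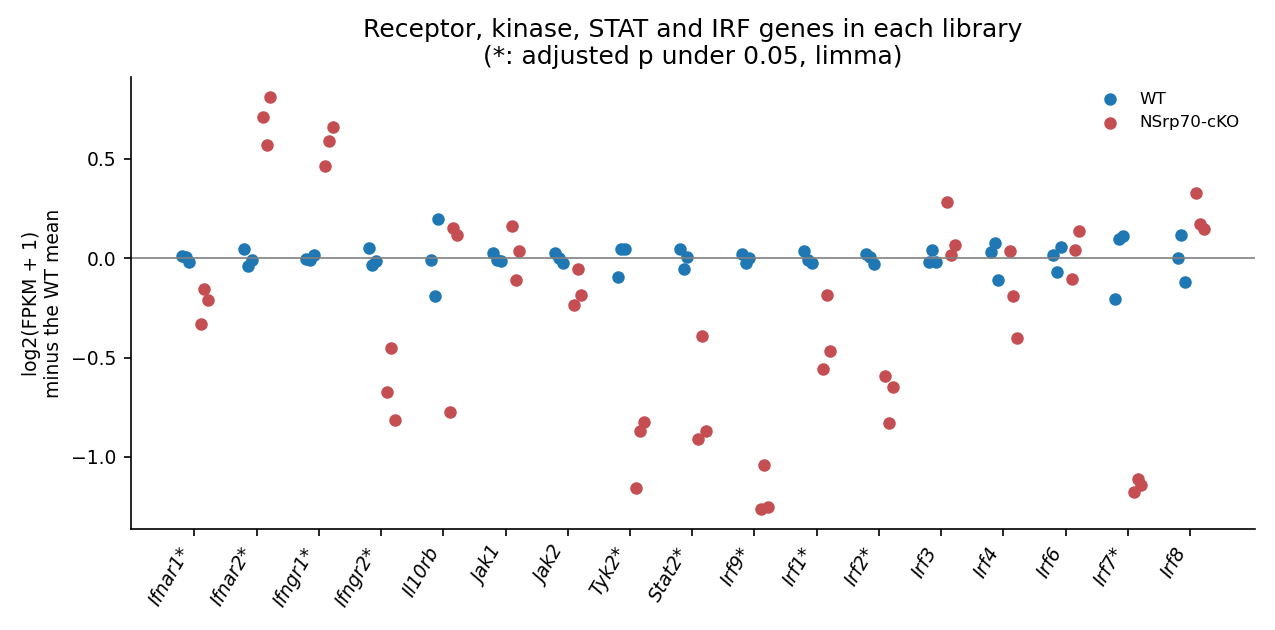
Log2(FPKM + 1) of receptor, kinase, STAT and IRF genes in each of the 3 WT (blue) and 3 NSrp70-cKO (red) libraries, minus the mean of the WT libraries, with asterisks at genes of adjusted p under 0.05 from limma. *Ifnar2*, *Ifngr1*, *Irf3* and *Irf8* lie above 0 in every cKO library. *Ifnar1*, *Ifngr2*, *Jak2*, *Tyk2*, *Stat2*, *Irf9*, *Irf1*, *Irf2* and *Irf7* lie below 0 in every cKO library. Of these, *Irf3*, *Irf8* and *Jak2* were not called.

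Among the 8 tested IRF genes, the 4 that were called (50%) were all lower, where 29.8% of all tested genes were called lower and 35.8% higher. They were *Irf1*, *Irf2*, *Irf7* and *Irf9*, and all but *Irf2* are members already counted above. The median log2 difference of the 8 was -0.29. Under quantile normalization 1 IRF gene was called higher beside 4 lower, and with the correction for GC content and length 2 were higher beside 4 lower. With equal FPKM totals 7 were lower and 0 higher, also 0 higher at an unadjusted p under 0.05 from limma. In that setting 6181 of all 10326 tested genes were lower and 902 higher. *Irf2*, which binds the same sites as IRF1 and is known mostly as a repressor, had an FPKM of 31.5, 31.3 and 30.4 in WT and of 20.2, 17.2 and 19.5 in cKO (log2 difference -0.69, SE 0.078, adjusted p = 0.000414 from limma). Its groups were far apart, and it was still called with the WT libraries as 1 sample (adjusted p = 0.0466). *Irf3*, the factor that first switches on interferon genes, had overlapping groups at 47.4, 49.7 and 47.4 FPKM in WT and 58.6, 49.0 and 50.4 FPKM in cKO (adjusted p = 0.239 from limma). It was called higher with the correction for GC content and length (0.34, adjusted p = 0.00781) and lower with equal FPKM totals (-0.43, adjusted p = 0.00536). Relative to the median of all tested genes with equal FPKM totals (-0.45), the difference of *Irf3* was 0.02.

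Of 12 tested genes listed as negative regulators of the pathway, 3 rose and 6 fell, or 25% and 50%, beside 35.8% and 29.8% of all tested genes. The 12 include *Isg20* and *Usp18*, which are also counted among the interferon-induced genes below. *Isg20* was not called (adjusted p = 0.698 from limma). The counts were 0 higher and 10 lower with equal FPKM totals, 3 and 2 with the correction for GC content and length, and 0 and 1 with the WT libraries as 1 sample, and in both settings with 0 higher none was higher at an unadjusted p under 0.05 from limma. Of all 10326 tested genes, 902 were higher and 6181 lower with equal FPKM totals. *Socs3* and *Socs1*, inhibitors of Janus kinase signaling, fell by 1.29 and 0.58 on the log2 scale. *Socs3* went from 6.91, 7.30 and 7.92 FPKM in WT to 1.58, 3.02 and 2.82 FPKM in cKO. *Socs1* went from 144, 140 and 134 FPKM to 96.5, 99.0 and 85.3 FPKM. The corepressors *Irf2bp1*, *Irf2bp2*, *Trim28* and *Trim24* fell by 0.56, 0.58, 0.57 and 0.18. Once GC content and length were corrected for, *Socs1* (adjusted p = 0.238), *Irf2bp1* (0.922), *Irf2bp2* (0.129), *Trim28* (0.813) and *Trim24* (0.0974) were no longer called. The genes called higher were *Pias1* (0.48), *Ptpn6* (0.29) and *Ptpn2* (0.27), which encode a STAT inhibitor and a pair of phosphatases, and all of them turned negative with equal FPKM totals. Relative to the median of all tested genes in that setting (-0.45), they were at 0.39, 0.19 and 0.18. *Usp18*, which removes ISG15 from its targets and blocks IFNAR2, was not called, at 3.80 to 4.64 FPKM in WT and 3.43 to 3.89 FPKM in cKO (adjusted p = 0.279 from limma). It was called lower with the correction for GC content and length (-0.36, adjusted p = 0.0230) and with equal FPKM totals (adjusted p = 0.00446). With equal totals its difference was -0.11 relative to the median of all tested genes.

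Of 19 tested genes that sense or clear nucleic acids, 7 were called higher and 6 lower, or 36.8% and 31.6%, close to the shares of 35.8% and 29.8% over all tested genes. The 19 include 4 that are also counted among the interferon-induced genes below, *Ifih1* among them, so the counts of these lists are not independent. The counts were 1 higher and 12 lower with equal FPKM totals, and 1 higher and 2 lower with the WT libraries as 1 sample. Over all 10326 tested genes, 902 were higher and 6181 lower with equal FPKM totals. *Samhd1*, which hydrolyzes deoxynucleotides, passed the filter only through its WT libraries. Its FPKM was 4.43, 4.44 and 5 in WT and 0.610, 0.549 and 0.617 in cKO, a WT mean 7.81 times the cKO mean (log2 difference -1.82, SE 0.083, adjusted p = 5.39e-05 from limma). The RNA editing enzyme *Adar* fell by 0.64, the signaling genes *Traf3* and *Ikbke* by 0.72 and 0.89, and the RNA sensor *Ifih1* by 0.36. *Rnaseh2b*, a subunit of ribonuclease H2, had an FPKM of 30.9, 28.1 and 30.0 in WT and of 64.3, 55.1 and 74.5 in cKO (log2 difference 1.09, SE 0.12, adjusted p = 0.000344 from limma). *Rnaseh2a* (0.67), *Mavs* (0.60), *Trex1* (0.51) and *Traf6* (0.27) were also higher. With equal FPKM totals none of these 4 was called higher, as *Rnaseh2a* was at 0.14 (adjusted p = 0.346), *Mavs* at 0.12 (adjusted p = 0.273), and *Trex1* and *Traf6* below 0. Relative to the median of all tested genes in that setting (-0.45), they were at 0.59, 0.57, 0.43 and 0.18, in the same order. *Ifih1* was not called under quantile normalization (adjusted p = 0.294).

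The wider set of interferon-induced genes held calls in both directions. Of 80 such genes that are not members, 65 were tested, and 24 were called lower, 12 higher and 29 neither, with a median log2 difference of -0.04. Of the tested genes, 36.9% were thus called lower and 18.5% higher, beside 29.8% and 35.8% of all tested genes. With equal FPKM totals the counts were 47 lower and 1 higher, and with the WT libraries as 1 sample they were 8 lower and 2 higher. Among all 10326 tested genes, equal FPKM totals gave 6181 lower and 902 higher. In this list, the lower genes of smallest adjusted p were *Slfn1* (log2 difference -2.08), *Znfx1* (-0.99), *Ifi27l2a* (-1.01), *Pyhin1* (-0.87) and *Helz2* (-1.15). *Slfn1*, a gene of T cell quiescence that is also among the markers of mature thymocytes, had an FPKM of 5.29, 6.34 and 5.77 in WT and of 0.644, 0.528 and 0.627 in cKO. Among the 24 lower genes, 3 (*Slfn1*, *Oas2* and *Oas3*) passed the filter only through their WT libraries. The higher genes of smallest adjusted p were *Lgals9* (0.88), *Ifit2* (0.71), *Gbp2* (0.62), *Gbp7* (0.56) and *Herc6* (0.38), of which only *Lgals9* was still called with equal FPKM totals (0.33, adjusted p = 0.00373) and *Herc6* turned negative. Relative to the median of all tested genes in that setting (-0.45), they were at 0.78, 0.64, 0.55, 0.49 and 0.34, in the same order.

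**Figure D5:**
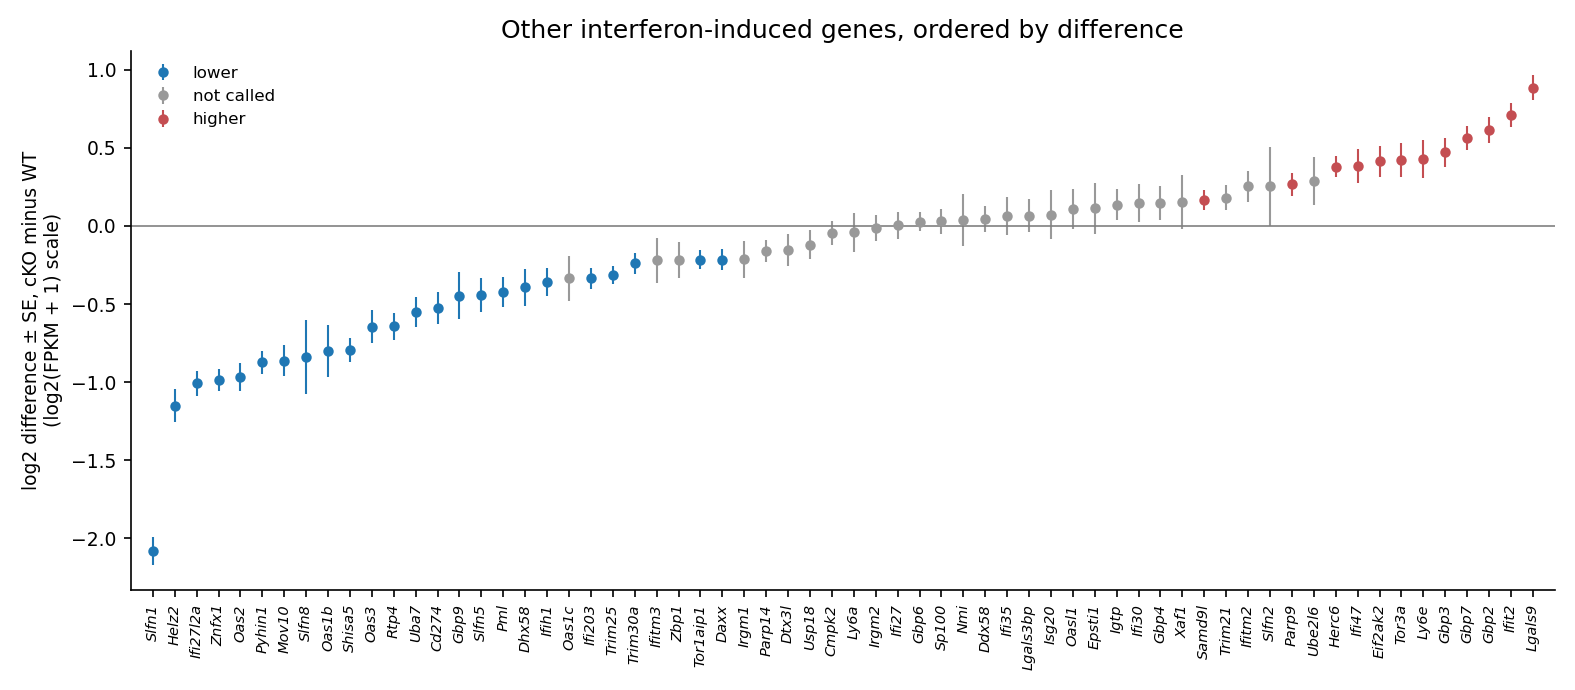
Log2 difference ± SE, cKO minus WT on the log2(FPKM + 1) scale, of tested interferon-induced genes other than the members, ordered by size and colored by the limma call at an adjusted p of 0.05. The 24 lower genes reach from *Slfn1* at -2.08 upward, and the 12 higher genes reach up to *Lgals9* at 0.88.

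Families were split. *Ifit2*, the neighbor of *Ifit1* and *Ifit3*, was at 12.6, 13.1 and 12.5 FPKM in WT and at 21.7, 19.8 and 23.0 FPKM in cKO (SE 0.074, adjusted p = 0.000326 from limma). Every cKO library was above WT, while *Ifit1* and *Ifit3* were below WT in all of them. Of the oligoadenylate synthetases, which were chosen for naming after their values were seen, *Oas2* fell from 1.20, 1.06 and 1.23 FPKM in WT to 0.0614, 0.143 and 0.108 FPKM in cKO (log2 difference -0.97, adjusted p = 0.000247 from limma). *Oas3* and *Oas1b* fell by 0.65 and 0.80, that of *Oas3* being -0.31 under quantile normalization and -0.27 with the correction for GC content and length. *Oas1c* was not called (log2 difference -0.34, adjusted p = 0.0777 from limma), and *Oas1a* was below the level tested, with overlapping groups at 0.653 to 0.857 FPKM in WT and 0.205 to 0.677 FPKM in cKO. In the ISG15 pathway, likewise chosen after its values were seen, the activating enzyme *Uba7* fell from 19.0, 19.7 and 19.3 FPKM to 13.2, 14.5 and 11.0 FPKM (log2 difference -0.55, adjusted p = 0.00231 from limma), while the ligase *Herc6* was higher and the conjugating enzyme *Ube2l6* was not called with size factors (adjusted p = 0.136) but was called higher under quantile normalization (0.61, adjusted p = 0.0125).

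Markers of other cells and stages moved between the genotypes. In bulk samples, fewer cells of a type and less RNA per cell cannot be told apart. The counts below stand beside 29.8% of all tested genes called lower and 35.8% called higher. Of 12 markers of mature single positive thymocytes, 9 fell and 2 rose, with a median log2 difference of -1.70, and 8 fell with the WT libraries as 1 sample. *Ccr7* fell from 15.1 to 16.2 FPKM in WT to 1.16 to 2.50 FPKM in cKO. *S1pr1*, which like *Slfn1* passed the filter only through its WT libraries, fell from 4.11 to 4.79 FPKM to 0.133 to 0.203 FPKM. The summed FPKM of the list was 569 to 578 in WT and 483 to 571 in cKO. Of 10 DP markers, 7 rose and 1 fell with size factors, against 1 and 5 under quantile normalization and none with the WT libraries as 1 sample (1 at an unadjusted p under 0.05 from limma), and their summed FPKM was 5915 to 5992 in WT and 7741 to 10083 in cKO. Of 13 dendritic cell and macrophage markers, 6 were below an FPKM of 1 in all libraries and 1 (*Cd74*) fell, with summed FPKM of 28.4 to 32.2 in WT and 21.5 to 26.8 in cKO. Of 9 plasmacytoid dendritic cell markers, *Siglech* lay at 0.0434 to 0.551 FPKM, and among 6 tested *Ly6d* and *Cox6a2* rose and *Pacsin1* fell, with summed FPKM of 824 to 867 in WT and 1557 to 1703 in cKO, most of it *Ly6d*, which thymocytes also express. No library reached an FPKM of 1 for 5 of the 6 B cell markers found (1 more was absent) and for 8 of 10 thymic epithelial markers. Of the epithelial markers, 3 were listed at 0 in all libraries. The sums were 22.8 to 24.2 FPKM in WT and 26.7 to 39.4 FPKM in cKO for B cells, and 7.12 to 7.85 FPKM and 5.61 to 6.56 FPKM for epithelium. Nearly all of the B cell sum was 1 gene, *Cd79b*. It was called higher with size factors (0.52, adjusted p = 0.0164 from limma) but not with equal FPKM totals (-0.03, adjusted p = 0.828 from limma). The 7 erythroid markers summed to 2.10 to 2.97 FPKM in WT and 15.3 to 31.5 FPKM in cKO. The part of these cells and stages, and of sex, in the differences of the interferon genes was not tested.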

How the data were processed

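Sorted DP thymocytes were profiled in 3 WT and 3 NSrp70-cKO libraries, grouped by their labels. The authors made poly(A)-selected strand-specific libraries, mapped the reads to mm10 with TopHat and deposited the FPKM that Cufflinks gave for each gene symbol. Versions and the gene annotation are not given in the sources used here. Library depth (13.1 to 20.8 M fragments, M, mega) was estimated from steps of 1 fragment in single-transcript genes, at an assumed fragment length of 200 nucleotides.

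Symbols were matched to GENCODE mouse release 21 (22110 of 23183 directly, 641 by synonym). Fold changes are on the log2(FPKM + 1) scale, which understates those of low genes, and were tested with limma 3.58.1 in R 4.3.3 (lmFit, eBayes with a trend). Python 3.11.15 with pandas 2.3.3, numpy 2.4.6 and matplotlib 3.10.9 made the tables and figures, and promoters came from RefSeq tables. On simulated data, with equal spread in both genotypes and a small share of genes changed, the fit was checked for recovery of known changes. That check does not cover the wider spread between the cKO libraries. Spline corrections had 5 degrees of freedom each for GC content and length (10237 genes).

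The members and gene lists were chosen with earlier results of these data known. The rule for naming took all members, *Nsrp1*, every called receptor, kinase, STAT, IRF and inhibitor gene, the 5 smallest adjusted p per direction among separate groups in the sensing and interferon-induced lists, marker genes beside results, and the 2 most correlated genes per member. Genes named outside it (*Jak1*, *Jak2*, *Irf3*, *Irf8*, *Usp18*, *Isg20*, the Ifit, Oas and ISG15 relatives, *Rnf31* and *Phrf1*) were chosen after their values were seen. Some genes are in the counts but are neither named nor drawn here. Pseudocount, filter, scaling, replicate block, trend, library weights and each library left out were the alternatives. The authors' own tests start from reads or counts and were not repeated.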

Additional observations from a re-analysis of the deposited data

How the results depend on the processing

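*Irf9* and *Irf7* were called lower under every alternative run for them (17 and 16), with log2 differences of -1.69 to -1.14 and -1.59 to -0.98. The difference of *Isg15* was reversed with equal FPKM totals (-0.16, or 0.30 relative to the median of all tested genes) and with the GC content and length correction (-0.27). Its call was lost in 8 others. The numbers of members called lower and higher were 6 and 1, against 7 and 0 with no filter, 7 and 0 with library weights, 7 and 0 with GC content and length, 7 and 0 with equal FPKM totals, 4 and 1 under quantile normalization, 3 and 1 at a mean FPKM of at least 5 (5 members tested) and 2 and 0 with the WT libraries as 1 sample. At an unadjusted p under 0.05 from limma, the number higher was 1 with no filter and with library weights, and 0 in the other 3 settings that gave 0. Leaving out each library in turn gave 6 to 7 lower and 0 to 1 higher. All tested genes called lower and higher were 6181 and 902 with equal FPKM totals and 901 and 744 with the WT libraries as 1 sample, in place of 3073 and 3693. The other interferon-induced genes were 47 and 1, and 8 and 2, in these settings. Why these counts moved was not tested.

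With a replicate block, 6 members were lower and 0 higher, as the adjusted p of *Isg15* from limma became 0.0637. The deviations of same-numbered WT and cKO libraries had correlations of -0.02, 0.04 and 0.03. Differences between WT libraries lay near counting noise (1.55 to 1.70 times its variance), so these correlations cannot show whether the numbers pair the samples. Depth limits *Ifit3* and *Oasl2* most, with 4.9 to 22.6 estimated fragments in cKO. *Isg15* and *Ifit1* also had few, with 43.8 to 69.5 in cKO, and *Isg15* had 49.7 to 66.9 in WT.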
